A study of Homo sapiens with 6 samples.

Results

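The 6 genes described here encode the Fraser complex and the nephronectin-integrin pair that it serves: *FRAS1*, *FREM1*, *FREM2*, *GRIP1*, *NPNT* and *ITGA8*. They were chosen by symbol, and all 6 were found among the 26485 gene names of the count table and among the 14877 that passed the filter on low counts. RNA-seq of polyadenylated RNA was performed on 6 cultures of HEK293, an established line of human embryonic kidney cells. In 3 knockdown cultures, a Smart Silencer, which combines siRNAs with antisense oligonucleotides, was transfected transiently with a lipid reagent against the long noncoding RNA *HSALNG0134318* of 22q11. The other 3 cultures are labelled NC and WT, and the sources used here do not say what they were transfected with. Both groups are the same line, and the silencer acted transiently with no stable edit. Knockdown replicates 1, 2 and 3 carried the culture numbers 1, 4 and 5 in the labels, and control replicates 1, 2 and 3 carried the numbers 10, 11 and 1. The study's methods describe the knockdown experiments as biologically independent, while the labels do not say how the cultures were kept apart, and a p-value here measures the spread between these cultures.

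*FRAS1*, *FREM1* and *FREM2* are very large extracellular proteins built from repeated CSPG and Calx-beta domains, and they assemble into a complex under the epithelial basement membrane. *GRIP1* is a cytoplasmic PDZ-domain adaptor that brings *FRAS1* and *FREM2* to the basal surface of the epithelium. In the developing kidney, the ureteric bud lays down this complex together with nephronectin (*NPNT*), which is bound by integrin alpha8 beta1 on the facing metanephric mesenchyme, and *ITGA8* encodes the alpha chain of that receptor. Loss of members of this pathway causes Fraser syndrome or absence of the kidney, and they are counted among the genes of inherited kidney and urinary tract malformation.

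The following coding stretches hold the chain ends of *FRAS1*, *FREM2* and *FREM1*, and codons for a short peptide that the integrin recognises. Whether each stretch meets a partner was not tested. The first set holds the last 30 coding bases before the stop codon, with the last 3 codons in capitals, because a PDZ domain binds the end of a protein chain. They were read on hg38 with GENCODE release 44, in the sense of the gene.
FRAS1, chr4:78541092-78541121, plus strand, exon 74: cacaacaatttacaagatggaACAGAAGTT
FREM2, chr13:38880755-38880784, plus strand, exon 24: cagagccatcacaatgacagcTCAGAAGTT
FREM1, chr9:14737399-14737428, minus strand, exon 37: cctcataattatgtgtgttccAGAAAACTC

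*FRAS1* and *FREM2*, both of which have a transmembrane segment and a cytoplasmic end, shared 8 of the last 9 coding bases, and the shared bases were the last 8 in a row. *FREM1*, which is secreted, shared 5 of these 9 bases with *FRAS1* and 4 with *FREM2*. The second set holds the codons for arginine, glycine and aspartate, the peptide recognised by integrin alpha8 beta1, in capitals. In *NPNT* these codons began at residue 382, and the printed run crosses the junction of exons 8 and 9. *FREM1* held the same 3 residues at 199 and at 1907, *FRAS1* held them at 3070, *ITGA8* itself held them at 1 place, and *FREM2* and *GRIP1* had none. A match of 3 residues is not by itself a binding site.
NPNT, chr4:105942675-105958472, plus strand, exons 8 and 9 joined: cctcagaaacccAGAGGAGATgtgttcatt
FREM1, residue 199, chr9:14859202-14859231, minus strand, exon 4: ccagaagaacctCGTGGAGATcagccacac
FREM1, residue 1907, chr9:14748461-14748490, minus strand, exon 31: ctagcagtcatcAGGGGAGACaccctgcgg
FRAS1, residue 3070, chr4:78499801-78499830, plus strand, exon 61: aaggtgatccgcAGAGGGGATcagaacagg

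The count tables held 13900965 to 16869948 reads on genes per culture. The root mean square difference in log2 expression was 0.271 to 0.315 between knockdown cultures, 0.369 to 0.485 between control cultures and 0.397 to 0.545 between the groups, and control replicate 2 stood farther from the other 2 controls than these did from each other. The targeted RNA is not a row of the table used here, so the knockdown itself was not checked in these counts. The paper reports RT-qPCR after knockdown in HEK293, with genes of kidney and urinary tract malformation significantly lower. Its primers include the targeted RNA, *FRAS1* and *FREM2*, but its text gives no direction for *FRAS1* or *FREM2*. Those RT-qPCR values were not used here. As a check of the cell line, *VIM*, *KRT8* and *KRT18*, which HEK293 expresses, had at least 1100 counts in every culture. By contrast, *CD3E* and *HBB* of blood had 0 counts in all 6, and *CDH5* and *PECAM1* of endothelium had at most 5. Of the other markers of these lists, *PTPRC*, *VWF* and *TEK* had at most 9 counts. *CD68* of the blood list was detected in every culture, with 62 to 113 counts. Markers of fibroblasts were not all absent: *COL1A1* had 571 to 699 counts per culture and *COL1A2* had 0 to 108. *DCN* and *LUM* of the same list had at most 15. The receptor side and the ureteric bud side of the kidney were not separate here: the mesenchyme markers *SALL1* and *EYA1* and the ureteric bud marker *GATA3* had at least 196 counts in every culture, while *CDH16* and *WNT9B* of the ureteric bud had at most 2.

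Between knockdown and control, *NPNT* was the only one of the 6 genes called at an adjusted p under 0.05, and it fell. None was called higher. Across all 14877 genes tested, 4.64% were called lower and 5.40% higher by the edgeR quasi-likelihood test with Benjamini-Hochberg adjustment. At an unadjusted p under 0.05 there were 3 of the 6, with *FREM1* and *NPNT* lower and *ITGA8* higher, beside 26.9% of all genes. The DESeq2 Wald test and limma-voom each called 1 of the 6, again *NPNT*. The 3 knockdown values lay entirely outside the 3 control values for 2 of the 6, *NPNT* and *FREM1*, as they did for 32.2% of all genes. With so few genes, these shares do not set the 6 apart from the rest of the table. The median log2 fold change was −0.17 over the 6 genes and −0.02 over all genes tested. In bulk RNA, fewer cells with a transcript and less of it in each cell cannot be told apart.

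**Figure D1:**
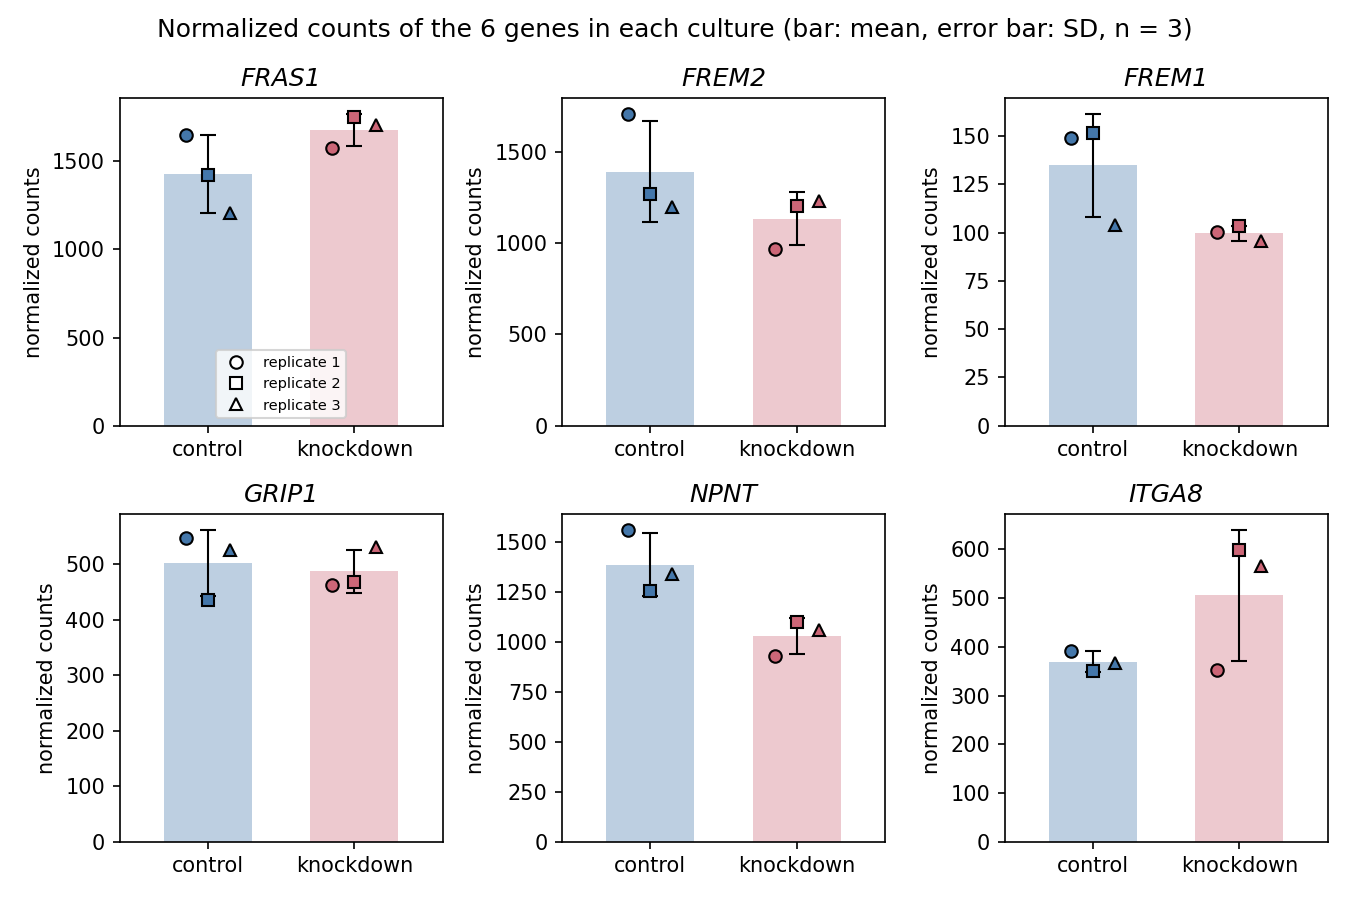
Normalised read counts of the 6 genes in each culture (vertical axes, counts scaled to the mean effective library size, each starting at 0), with 3 control and 3 knockdown points and their mean and SD. *NPNT* and *FREM1* points do not overlap between the groups, and in *ITGA8* one knockdown culture lies among the controls while the other two lie above them.

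*NPNT* (ENSG00000168743.13, chr4:105894775-106004027, plus strand) encodes nephronectin, the ligand. Its normalised counts were 1561, 1257 and 1341 in control replicates 1, 2 and 3, and 929, 1103 and 1062 in knockdown replicates 1, 2 and 3. Every knockdown culture was below every control culture, and the gap between the groups was 1103 against 1257. The mean was 1386 ± 157 (SD, n = 3) in the controls and 1031 ± 90.6 (n = 3) in the knockdown, a log2 fold change of −0.43 (SE 0.11, 95% interval −0.67 to −0.19, edgeR adjusted p = 0.032). That is a change of −25.6%, with an interval from −37.1% to −12.1%. The exact permutation p of 0.1 is the smallest that 3 against 3 can give. Of all genes tested, 10.1% had a lower log2 fold change, so the size of the change was not extreme in these cultures. The direction held in all 14 alternative settings, with log2 fold changes from −0.49 to −0.33. The call was lost without knockdown replicate 1 (−0.36, edgeR adjusted p = 0.137), knockdown replicate 2 (−0.48, adjusted p = 0.0808), knockdown replicate 3 (−0.45, adjusted p = 0.11) or control replicate 1 (−0.33, adjusted p = 0.113). Without control replicate 2, which stood apart, the log2 fold change was −0.49 and the adjusted p was 0.00343.

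*ITGA8* (ENSG00000077943.8, chr10:15513954-15719922, minus strand) encodes the alpha chain of the nephronectin receptor. Its normalised counts were 392, 351 and 367 in the controls and 352, 599 and 567 in knockdown replicates 1, 2 and 3. Knockdown replicate 1 was at the level of the controls, and knockdown replicates 2 and 3 were above all of them. The mean was 370 ± 20.7 (SD, n = 3) in the controls and 506 ± 134 (n = 3) in the knockdown, a log2 fold change of 0.45 (SE 0.18, 95% interval 0.06 to 0.84) that did not pass after adjustment (edgeR adjusted p = 0.133). The coefficient of variation was 26.6% in the knockdown cultures and 5.59% in the controls. Without knockdown replicate 1 the log2 fold change was 0.66 and the adjusted p was 0.0229, and over all alternatives the log2 fold change ran from 0.31 to 0.66. The size of this change rested on which knockdown cultures were counted.

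*FRAS1* (ENSG00000138759.20, chr4:78057323-78544269, plus strand) encodes the protein for which the complex is named, in 74 exons and 4012 residues. Its normalised counts were 1649, 1424 and 1209 in the controls and 1576, 1754 and 1706 in the knockdown. The highest control lay inside the knockdown range. The means were 1427 ± 220 and 1678 ± 91.9 (SD, n = 3 each), with a log2 fold change of 0.23 (SE 0.11, 95% interval −0.02 to 0.48, edgeR adjusted p = 0.217). No alternative setting brought it past the threshold, and the adjusted p ran from 0.0977 to 0.476. The upper bound of the interval corresponds to 39.9% more than the controls.

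*FREM2* (ENSG00000150893.11, chr13:38687077-38887131, plus strand) encodes the partner that is held at the membrane together with *FRAS1*, in 24 exons and 3169 residues. Its normalised counts were 1711, 1269 and 1198 in the controls and 968, 1206 and 1230 in the knockdown. Control replicate 3 lay inside the knockdown range. The means were 1393 ± 278 and 1135 ± 145 (SD, n = 3 each), with a log2 fold change of −0.30 (SE 0.14, 95% interval −0.61 to 0.02, edgeR adjusted p = 0.211). It passed under 1 alternative, a GC and length correction that was added after the values were seen (−0.38, adjusted p = 0.0235). Without control replicate 1, its highest culture, the log2 fold change was −0.12.

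*FREM1* (ENSG00000164946.20, chr9:14737152-14910995, minus strand) encodes the secreted member, in 37 exons and 2179 residues, and had the fewest reads of the 6 genes, 89 to 170 per culture. Its normalised counts were 149, 152 and 104 in the controls and 100.2, 103 and 95.5 in the knockdown. Every knockdown culture was below every control, but control replicate 3 exceeded the nearest knockdown culture by less than 1 normalised count. The means were 135 ± 26.8 and 99.7 ± 3.90 (SD, n = 3 each), with a log2 fold change of −0.44 (SE 0.19, 95% interval −0.85 to −0.02, edgeR adjusted p = 0.164). Without control replicate 3, the log2 fold change was −0.59 with an adjusted p of 0.0443. The point estimate was as large as that of *NPNT*, and the SE was larger.

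*GRIP1* (ENSG00000155974.14, chr12:66347431-67069162, minus strand) encodes the adaptor, and its normalised counts were 546, 435 and 526 in the controls and 462, 467 and 530 in the knockdown. The groups overlapped throughout. The means were 502 ± 59.3 and 486 ± 38.1 (SD, n = 3 each), with a log2 fold change of −0.05 (SE 0.13, 95% interval −0.32 to 0.23, edgeR adjusted p = 0.854). Its sign turned without control replicate 1 (0.02).

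**Figure D2:**
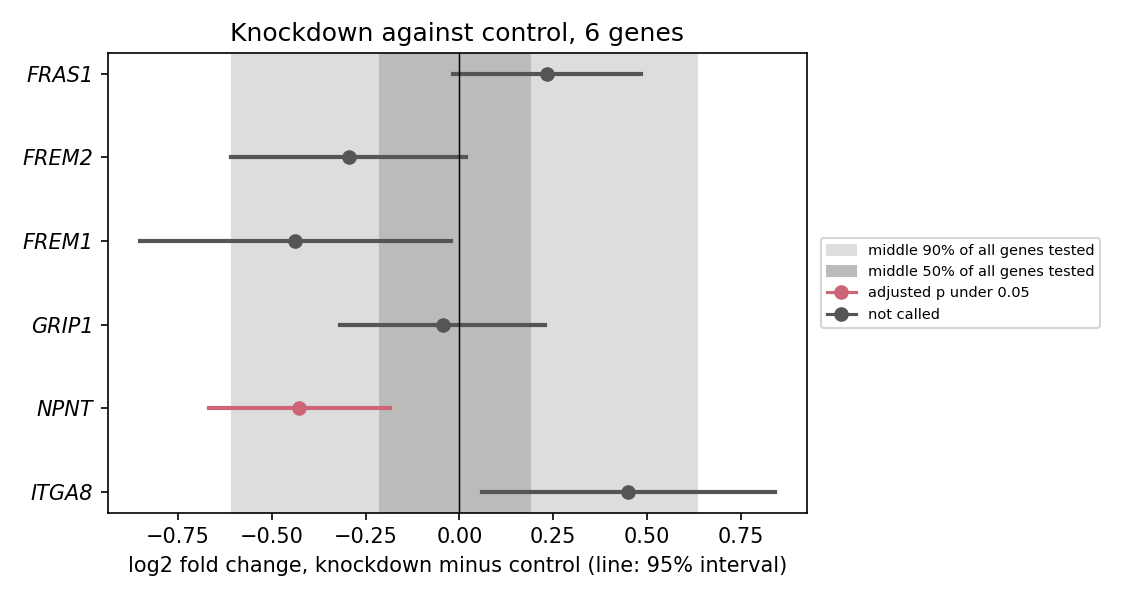
Log2 fold change of each gene, knockdown minus control (horizontal axis), with its 95% interval from the edgeR fit of 3 against 3 cultures. The intervals of *NPNT*, *FREM1* and *ITGA8* leave out 0, and only *NPNT* passed after adjustment over 14877 genes.

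The ratio of *FREM2* to *FRAS1* within each culture does not depend on how the libraries were scaled. It was chosen because the proteins are held at the membrane together, but with the opposite signs of the 2 log2 fold changes known from earlier results, so it is given as a description with no test. The ratio of *FREM2* to *FRAS1* reads was 1.04, 0.892 and 0.991 in the controls and 0.614, 0.688 and 0.721 in the knockdown cultures. The closest pair between the groups was 0.721 against 0.892. The log2 ratio was −0.04 ± 0.11 (SD, n = 3) in the controls and −0.57 ± 0.12 (n = 3) in the knockdown, a difference of −0.53. Leaving out each culture in turn gave differences from −0.59 to −0.46.

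The ratio of *NPNT* to *ITGA8* reads, ligand to receptor, was chosen after their values were seen and was not tested. It was 3.98, 3.58 and 3.65 in the controls and 2.64, 1.84 and 1.87 in the knockdown cultures. All 3 knockdown cultures were lower, with knockdown replicate 1 nearest to the controls. On the log2 scale the means were 1.90 ± 0.08 and 1.06 ± 0.29 (SD, n = 3 each), a difference of −0.84.

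**Figure D3:**
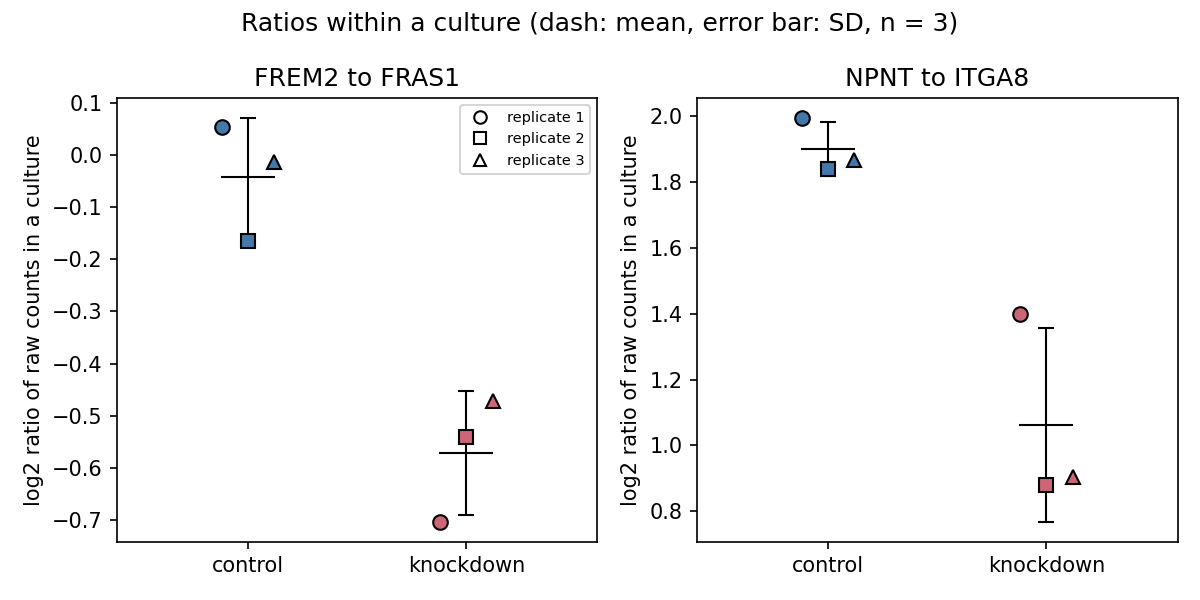
Log2 ratio of read counts within each culture for *FREM2* to *FRAS1* and for *NPNT* to *ITGA8* (vertical axis), with the mean and SD of 3 control and 3 knockdown cultures. Both ratios were lower in every knockdown culture than in every control.

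Levels between genes can be set side by side only per length of transcript. Per kilobase of the union of annotated exons, *NPNT* had the highest level in the controls, 227 ± 25.7 normalised counts per kilobase (SD, n = 3). *FREM2* followed with 85.6 ± 17.1, *GRIP1* with 70.4 ± 8.31, *FRAS1* with 70.2 ± 10.8 and *ITGA8* with 50.5 ± 2.82, and *FREM1* was lowest with 16.3 ± 3.24. *FREM2*, *GRIP1* and *FRAS1* did not differ from each other beyond their spread, whereas *NPNT* at the top and *FREM1* at the bottom stood clear of their neighbours by more than the SDs. In the knockdown, the levels per kilobase were 169 ± 14.8 for *NPNT*, 82.6 ± 4.52 for *FRAS1*, 69.7 ± 8.91 for *FREM2*, 69.1 ± 18.3 for *ITGA8*, 68.2 ± 5.34 for *GRIP1* and 12.05 ± 0.471 for *FREM1*. The order of *FRAS1* and *FREM2* depended on the length used: over all 6 cultures *FREM2* was at 77.6 and *FRAS1* at 76.4 per kilobase of exon union, and at 78.4 and 97.8 per kilobase of the longest transcript. *GRIP1* also moved, from 69.3 to 96.0, which placed it above *FREM2*. By level per kilobase of exon union, *NPNT* stood at percentile 74.2 of the genes tested, *FREM2* at 47.4, *FRAS1* at 46.9, *GRIP1* at 44.3, *ITGA8* at 40.6 and *FREM1* at 16.5. RNA of both the epithelial side and the mesenchymal side of the pathway was therefore present in the same cultures.

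In the genome the 6 genes lie on 5 chromosomes, and the 2 on chromosome 4 are far apart. The tested protein-coding genes on either side were examined for each. Next to *ITGA8*, *FAM171A1*, 143 kb away, rose with a log2 fold change of 0.52 (edgeR adjusted p = 0.00705), and *FAM188A*, 58.2 kb away, was at 0.14 (adjusted p = 0.384). Next to *FREM1*, *ZDHHC21*, a palmitoyltransferase gene 43.7 kb away, fell by 0.63 on the log2 scale (adjusted p = 0.0197), and *TTC39B* was at −0.06. Next to *FREM2*, *PROSER1*, 123 kb away, rose by 0.33 (adjusted p = 0.0426) and *UFM1* was at −0.09. *FAM171A1* passed with any single culture left out. *ZDHHC21* did not pass without control replicate 1, knockdown replicate 1 or knockdown replicate 3 (adjusted p from 0.0624 to 0.0838), and *PROSER1* passed only when control replicate 2 was the culture left out (otherwise 0.0513 to 0.188). The neighbours of *NPNT* were *GSTCD*, 47.1 kb away, with −0.43 (adjusted p = 0.0628), and *TBCK*, 37.6 kb away, with 0.05, neither of which passed. The neighbours of *FRAS1* and *GRIP1* did not pass either, with log2 fold changes of −0.16 for *MRPL1*, −0.30 for *ANXA3*, 0.02 for *HELB* and −0.22 for *CAND1*.

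*NPNT* overlaps *INTS12*, a subunit gene of the Integrator complex, by 1212 bases on the opposite strand, and *INTS12* had a log2 fold change of −0.20 (edgeR adjusted p = 0.323). The libraries were stranded, but the strand setting of the counting is not given in the sources used here, so reads of overlapping genes on opposite strands cannot be told apart for certain. Also on the opposite strand, *NPNT* is overlapped by 2 long noncoding RNAs, over 5663 and 711 bases, neither of which is a row of the table. *FREM2* is overlapped on the opposite strand by *FREM2-AS1* and *FREM1* by 2 long noncoding RNAs, none of which is a row of the table. On the same strand, *FREM2* is overlapped over 93 bases by *RNU6-56P*, a small nuclear RNA gene. *RNU6-56P* is a row of the table but did not pass the filter. *GRIP1* is overlapped on the same strand by a long noncoding RNA over 118409 bases, which is not a row. *ITGA8* overlaps no other annotated gene.

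The windows of 250 bases before each RefSeq start on GRCh38.p14 differed among the genes, and *GRIP1* has no entry there. The window of *NPNT* was 79.2% G or C with 27 CpG and 3 GC boxes (GGGCGG on either strand). However, it lies inside the gene as GENCODE draws it, and 4 annotated exons overlap it. The gene and strand of these exons were not looked up. The window of *ITGA8* was 68.0% with 19 CpG and 4 GC boxes. *FRAS1* had 60.4%, 14 CpG and 1 GC box, and *FREM2* had 61.2%, 9 CpG and none, with 2 CCAAT boxes in their place. The 3 starts of *FREM1* held no GC box and were at 37.2%, 53.6% and 40.4% G or C. A GC box was found in 42.64% and CCAAT in 32.01% of 35116 such windows, whose median was 58.0% G or C with 11 CpG. A match of letters is a description and not a site.

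For each gene, the 2 genes of most similar profile over the 6 cultures were taken from 12376 genes that averaged 50 or more counts, by the root mean square difference of centred log2 values. For *NPNT*, whose own values varied by 0.243, they were *KIF21B* at 0.0298 and *TNRC6A* at 0.0355, and *TNRC6A*, a GW182 protein gene of microRNA silencing, fell by 0.40 on the log2 scale (edgeR adjusted p = 0.0307), a call lost without control replicate 1 or any single knockdown culture (0.0905 to 0.138). For *ITGA8*, which varied by 0.322, the closest were *GPM6A* at 0.0537 and *ZNF566* at 0.0846. *FRAS1* was followed most closely by *ANKMY1* (0.0348) and *FANCF* (0.0387), and *FREM2* by *INTS6* (0.0302) and *UBN2* (0.0412). The genes nearest to *FREM1* were *PRR36* (0.0335) and *PTPRJ* (0.043), and those nearest to *GRIP1* were *ZGRF1* (0.02) and *GFM1* (0.0244). None of the 6 genes was among the closest of another. With only 2 of 12376 genes kept for each, this does not show whether the 6 vary together. The profiles include the difference between the groups, so the fall of *TNRC6A* follows from how it was chosen.

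The proteins around the complex were followed through lists of related genes, which were tested within the same fit. Over all genes tested, 4.64% were called lower and 5.40% higher, and 26.9% had an unadjusted p under 0.05 in either direction. In lists of 10 genes or fewer, 1 call does not set a list apart from these shares. The lists were chosen with earlier results of these data known, so these shares cannot test whether a list of any size stands apart. Among 4 furin-type convertases, which cleave precursor proteins on the way to the surface, 1 fell and none was called higher, with a list median of 0.30 on the log2 scale. *FURIN* had 4292 ± 418 normalised counts (SD, n = 3) in the controls and 2708 ± 136 (n = 3) in the knockdown, a log2 fold change of −0.66 (SE 0.10, edgeR adjusted p = 0.00167). Its groups did not overlap, and it passed in all 14 alternatives. The other 3 had positive log2 fold changes that did not pass, with *PCSK5* at 0.45 (adjusted p = 0.0634), *PCSK6* at 0.28 (adjusted p = 0.0636) and *PCSK7* at 0.31 (adjusted p = 0.106). At an unadjusted p under 0.05 all 3 were counted higher, and the DESeq2 Wald test called 1 of them.

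Nearest to the receptor, 7 of 8 subunits of integrins that bind arginine-glycine-aspartate were tested and none was called, with a median of −0.12. At an unadjusted p under 0.05, 1 was lower and 0 higher, beside 26.9% of all genes in either direction. *ITGB1*, the beta chain that pairs with *ITGA8*, had 8535 ± 1732 normalised counts in the controls and 7250 ± 428 in the knockdown (SD, n = 3 each), with a log2 fold change of −0.24 (SE 0.13, edgeR adjusted p = 0.28). *ITGB8*, named after its values were seen, was at −0.56 with an adjusted p of 0.0503, and the DESeq2 Wald test called 1 subunit of the list. *ITGAV* was at 0.16, *ITGA5* at −0.12 and *ITGB5* at −0.21. Of 4 other ligands of integrin alpha8 beta1, *FN1* (fibronectin, log2 fold change 0.22, adjusted p = 0.406) and *TNC* (tenascin C, 0.06) were tested, and *VTN* and *SPP1* had at most 10 counts. No ligand of the list passed at an unadjusted p under 0.05 or by either other tool.

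Of 5 relatives of the matrix proteins and *GRIP1*, 3 were tested, *CSPG4* (−0.32), *GRIP2* (−0.49) and *VWA2* (0.13), and 0 were called, 0 also at an unadjusted p under 0.05, by DESeq2 and by limma-voom. *FREM3* had 0 counts in all 6 cultures and *EGFL6*, another integrin alpha8 beta1 ligand with this peptide, at most 2.

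The basement membrane in which the complex lies was represented by 21 collagen IV, laminin, nidogen and proteoglycan genes, all of them tested. Of these, 5 rose and none was called lower, beside 5.40% higher and 4.64% lower of all genes tested, and the median log2 fold change was 0.33. At an unadjusted p under 0.05, 10 of the 21 were higher and 0 lower, beside 26.9% of all genes in either direction. This list was also chosen with earlier results known, and whether it stands apart from all genes was not tested. *LAMA4* rose from 1874 ± 439 to 3270 ± 139 normalised counts (SD, n = 3 each; log2 fold change 0.80, edgeR adjusted p = 0.00483). *COL4A6* rose from 761 ± 114 to 1164 ± 28.0 (0.61, adjusted p = 0.00784) and *COL4A3* from 338 ± 37.9 to 499 ± 5.54 (0.56, adjusted p = 0.0143). *LAMB1* (0.54, adjusted p = 0.0173) and *COL4A4* (0.64, adjusted p = 0.0341) were the remaining called genes. *COL4A1*, named after its values were seen, had a larger log2 fold change of 0.88 but did not pass (adjusted p = 0.0808), with 1543 ± 693 normalised counts in the controls and 2844 ± 179 in the knockdown. Of the most abundant genes that were not called, *LAMC1* was at −0.03, *NID1* at −0.19, *COL4A2* at 0.42 and *AGRN* at 0.42, with adjusted p-values of 0.883, 0.196, 0.0933 and 0.052. The count of genes called higher was 2 without any single one of the 3 knockdown cultures, 3 without control replicate 1, and 8 without control replicate 2 or 3. Under the GC and length correction 6 were called higher and 1 lower, *NID1* (adjusted p = 0.0419). *LAMA4* and *COL4A6* passed in all 14 alternatives. *COL4A3* lost its call without any single knockdown culture (adjusted p from 0.0575 to 0.0773), and *LAMB1* (0.056 to 0.0848) and *COL4A4* (0.1 to 0.13) lost theirs without those or control replicate 1.

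Among 10 genes of the GDNF-RET axis, the signal that acts from mesenchyme to ureteric bud and depends on *NPNT* and *ITGA8* in the embryo, 0 were called, and 0 by DESeq2 and by limma-voom. At an unadjusted p under 0.05, 1 was lower and 2 were higher, beside 26.9% of all genes in either direction. *GDNF*, the ligand, had 22 to 49 counts per culture, with 42.6 ± 1.31 normalised counts in the controls and 25.95 ± 2.64 in the knockdown (SD, n = 3 each; log2 fold change −0.71, SE 0.25, edgeR adjusted p = 0.0957). *GFRA1*, its co-receptor gene, was at −0.01, and *RET*, with 22 to 40 counts, was at 0.01, with adjusted p-values of 0.978 and 0.991.

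Of 9 tested cargo and motor partners of *GRIP1*, 1 fell and 1 rose, beside 4.64% lower and 5.40% higher of all genes tested. *KIF5B*, a kinesin heavy chain that *GRIP1* steers, fell from 8260 ± 1256 to 5610 ± 501 normalised counts (SD, n = 3 each; log2 fold change −0.56, edgeR adjusted p = 0.0143). *GRIPAP1*, which encodes a GRIP1-associated protein, rose from 999 ± 187 to 1514 ± 31.9 (0.60, adjusted p = 0.0114). *KIF5B* was not called without control replicate 1 or any single knockdown culture (adjusted p from 0.0513 to 0.0855), and *GRIPAP1* not without control replicate 1, knockdown replicate 1 or knockdown replicate 3 (0.0519 to 0.0592). Of 8 integrin adhesion adaptors, only *VCL* (vinculin) was called, beside the same shares of all genes. It fell by 0.35 on the log2 scale (edgeR adjusted p = 0.024), and the call was lost without control replicate 1 or any single knockdown culture (0.0604 to 0.161). The most abundant adaptor, *TLN1* (talin), was at 0.33 and did not pass (edgeR adjusted p = 0.0595). At an unadjusted p under 0.05, 1 adaptor was lower and 2 were higher, beside 26.9% of all genes in either direction. DESeq2 called 1 lower and 1 higher, and limma-voom called 1 lower and 0 higher.

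**Figure D4:**
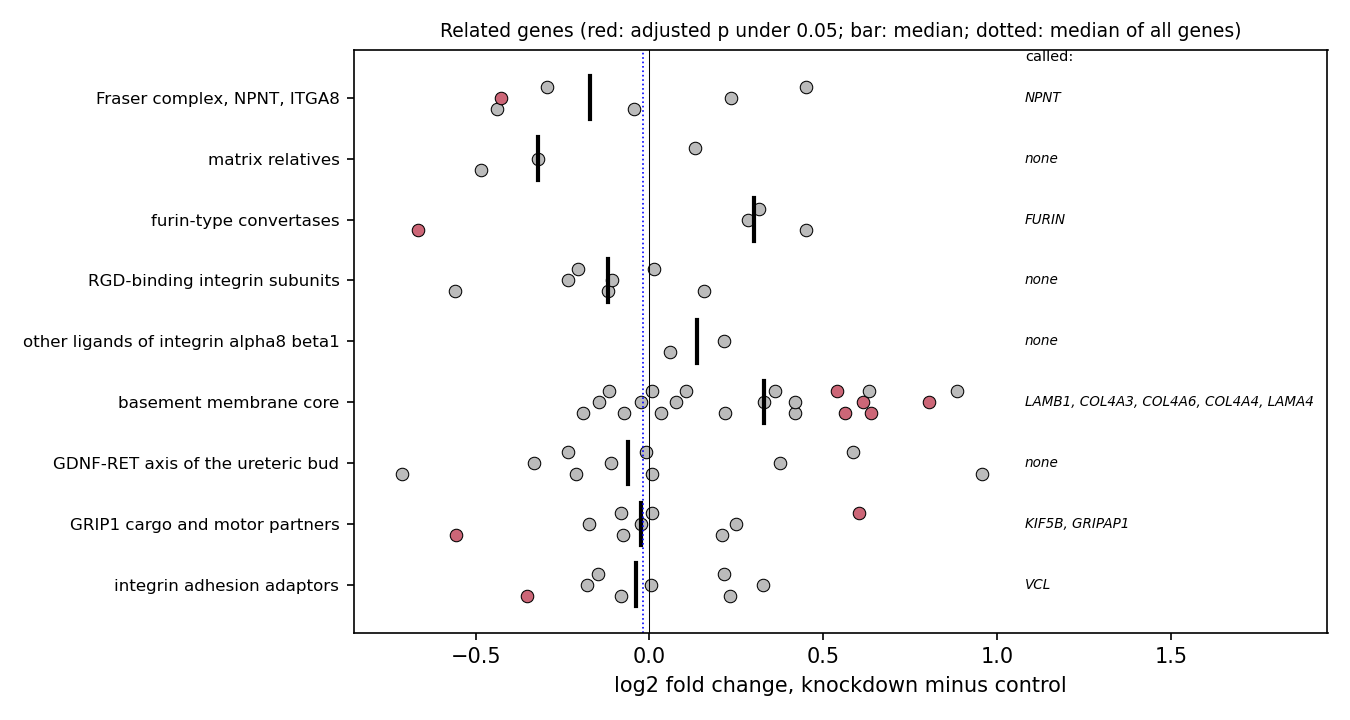
Log2 fold change, knockdown minus control (horizontal axis), of each tested gene of the 6 and of the related lists, with genes past the adjusted threshold in red and named at the right, the median of each list as a bar and the median of all tested genes as a dotted line. The 5 called genes of the 21 in the basement membrane list all lie to the right of 0.

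Marker lists of other cell types were followed in the same cultures. *PODXL*, which podocytes and many other cells express, rose (0.52, edgeR adjusted p = 0.0057). It was 1 of 2 podocyte markers tested, beside 5.40% of all genes called higher. The podocyte gene *NPHS1* had at most 5 counts in any culture. Of 6 metanephric mesenchyme markers, *OSR1* fell by 1.07 on the log2 scale (adjusted p = 0.0102), and the other 5 did not pass, beside 4.64% of all genes called lower. At an unadjusted p under 0.05, 2 of the 6 were lower and 1 was higher, beside 26.9% of all genes in either direction. Without knockdown replicate 2 or 3, *OSR1* had adjusted p-values of 0.0518 and 0.0593. No marker of the ureteric bud, fibroblasts, blood or the HEK293 cytoskeleton was called, and no marker of endothelium passed the filter to be tested. At an unadjusted p under 0.05 there were 0 of 3, 0 of 2, 0 of 1 and 2 of 6 tested genes, in that order. Over all genes the share was 26.9%. In these lists 0 markers were called by DESeq2 or limma-voom. The part of these markers in the values of *NPNT* and *ITGA8* was not tested.

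**Figure D5:**
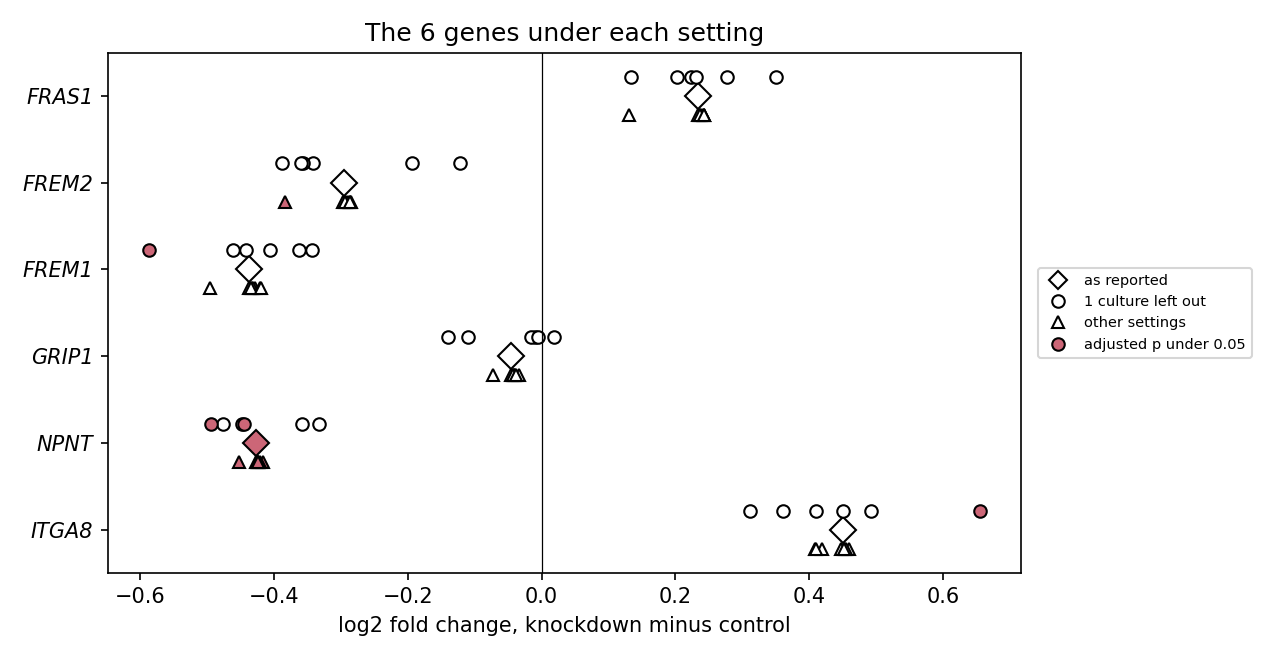
Log2 fold change of each of the 6 genes under the reported fit and its 14 alternatives (horizontal axis), with settings that pass an adjusted p under 0.05 in red. *NPNT* stays below 0 in every setting and *ITGA8* above 0, and *GRIP1* crosses 0.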

How the data were processed

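RNA-seq counts of 3 knockdown and 3 control HEK293 cultures were analysed. The authors deposited whole-number read counts per gene without normalization. Per the submitters' processing notes, reads were trimmed with Trim Galore 0.6.6, aligned to hg38 with STAR 2.7.9a and counted with featureCounts 2.0.1; the paper's methods add removal of ribosomal RNA and give other versions of STAR and featureCounts. The annotation, strand setting and handling of multi-mapping reads are not given in the sources used here.

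Here, genes were filtered with filterByExpr, scaled by TMM and tested without a block by the robust quasi-likelihood F test of edgeR 4.0.16 in R 4.3.3, with Benjamini-Hochberg adjustment over 14877 genes and a threshold of 0.05. Normalised counts are scaled to the mean effective library size. Ratios took 0.5 more of each count. Exact permutation tests were two-sided, in Python 3.11.15. The ratio of *FREM2* to *FRAS1* was planned with such a test, which is not used since the signs of both genes were known. Positions come from GENCODE release 44, to which 23161 names matched by symbol and 1369 by an older symbol, while 1955 did not match. The related lists and neighbours were named by rule: called members, up to 4 others of highest mean count, the 2 most similar profiles and the nearest tested genes. Markers were also named where they check a label, and *COL4A1*, *ITGB8*, *GDNF* and *RET* were named after their values were seen. Markers not named enter the counts of their lists, and some single values are not reported here. The members and lists were chosen with earlier results of these data known. The script steps were tested on simulated data: of 200 genes changed by 1 on the log2 scale, 184 were recovered among 14727, with 11 false calls.

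Alternatives were other scaling (DESeq2 size factors, library sizes alone), no filter or at least 10 counts in every culture, DESeq2 1.42.0, limma-voom (limma 3.58.1), the replicate number as a block and each culture left out. A correction for GC content and transcript length (loess, span 0.3, known for 97.3% of tested genes) was added after seeing the data. Intervals cover the spread between these cultures, and depth limits *FREM1* most.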

Additional observations from a re-analysis of the deposited data

How the results depend on the processing

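Of the 14 alternatives, 10 kept the call of *NPNT*, and its log2 fold change ran from −0.49 to −0.33 when each culture was left out, with the call lost without knockdown replicate 1, 2 or 3 (−0.36, −0.48, −0.45) or control replicate 1 (−0.33). *FREM2* passed only under the correction for GC content and transcript length (−0.38) and ran from −0.39 to −0.12 with cultures left out. *FREM1* passed without control replicate 3 (−0.59) and ran from −0.59 to −0.34, and *ITGA8* passed without knockdown replicate 1 (0.66) and ran from 0.31 to 0.66. *FRAS1* never passed (0.13 to 0.35 with cultures left out), and *GRIP1* (−0.14 to 0.02) turned sign without control replicate 1 (0.0193). Over all genes, 690 were called lower and 804 higher. Leaving out 1 culture gave 233 to 1238 lower and 289 to 1274 higher, and the correction for GC content and transcript length gave 1443 and 1283. The cause was not tested. The median log2 fold change of all genes moved by less than 0.1 under every scaling.

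The replicate numbers did not pair the cultures: same-numbered cultures correlated at −0.199, −0.112 and −0.0438 in their deviations from the group means, and none correlated best with its own number. With the replicate block, 619 genes were called lower and 714 higher, and *NPNT* was at −0.42 with an edgeR adjusted p of 0.0417, while the replicate block changed no call among the 6 genes. Of the related genes called in the report, *VCL* and *PROSER1* were lost under it. The related lists also gained calls, with 8 in place of 5 basement membrane genes higher, 1 convertase and 1 gene of the GDNF-RET axis higher, and 1 integrin subunit lower.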
